A study of Mus musculus with 12 samples.

Results

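The *Hoxd* genes are a row of 9 homeobox genes on mouse chromosome 2, *Hoxd13*, *Hoxd12*, *Hoxd11*, *Hoxd10*, *Hoxd9*, *Hoxd8*, *Hoxd4*, *Hoxd3* and *Hoxd1* in chromosomal order. They were picked out by symbol, matched to the Ensembl identifiers of the deposited table, and are 9 of its 54532 genes. The cluster was chosen because *Hoxd10*, *Hoxd11* and *Hoxd12* stood out in the comparison of iCreb5 with tdTomato cells in these same libraries. The differences between those groups are therefore given for the 9 genes as a description, with no test.

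RNA was sequenced from limb bud mesenchymal cells of mouse embryos at E14.5, sorted by fluorescence. The fathers carried Prrx1-Cre, a Cre recombinase active in limb bud mesenchyme, and the mothers carried 2 Rosa26 alleles, each silent until Cre removes a stop cassette. The iCreb5 cells, iCreb5HA-GFP(Prrx1-Cre), expressed bovine Creb5, a transcription factor, with an HA tag and with GFP, and the tdTomato cells, itdTomato(Prrx1-Cre), expressed a red fluorescent protein from the other allele. There were 6 libraries of each group, and both groups carry Prrx1-Cre. The labels mark 4 litters, with 3 iCreb5 and 3 tdTomato libraries in litter 3 and 1 of each in litters 4, 5 and 6, whereas the design text speaks of 6 litters. Batch labels and litters coincide, and their effects cannot be told apart. The transgene product is a bovine protein driven from Rosa26 and not from the mouse *Creb5* gene. Whether forelimbs and hindlimbs were pooled, and whether a library is 1 embryo, was not stated in the labels.

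Hox genes encode DNA-binding homeodomain proteins that give cells a position along the body and limb axes, and their order on the chromosome follows the order in which they are used. In mouse limbs the *Hoxd* cluster is read in successive phases, the early one under enhancers on the *Hoxd1* side and the late one, in the future digits, under enhancers on the *Hoxd13* side. The genes at the *Hoxd13* end, called 5′ genes, pattern the forearm and digits, and mutations of *HOXD13* in people cause fused and extra digits. Genes near the middle of the cluster lie where the reach of the enhancer domains meets.

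The first data shown are the promoter sequences of the 4 neighbouring genes that were higher in iCreb5 cells and of *Hoxd9*, the next gene, which differed little. Each is a window from RefSeq, build GRCm38.p6 (mm10), plus strand, covering 250 bases before and 50 after a start site, and *Hoxd11* has 2 such windows. Capitals mark TGACG, on either strand (CGTCA), the core letters of the cAMP response element bound by CREB-type factors, and TGANTCA, the letters of AP-1 sites, which read the same on both strands.
*Hoxd13*, chr2:74667975-74668274: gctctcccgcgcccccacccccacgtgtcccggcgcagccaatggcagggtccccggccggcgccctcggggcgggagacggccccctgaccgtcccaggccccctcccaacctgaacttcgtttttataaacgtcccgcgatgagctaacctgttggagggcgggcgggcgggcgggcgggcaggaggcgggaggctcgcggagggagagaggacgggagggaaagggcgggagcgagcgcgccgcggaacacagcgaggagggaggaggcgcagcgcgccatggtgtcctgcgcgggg
*Hoxd12*, chr2:74674763-74675062: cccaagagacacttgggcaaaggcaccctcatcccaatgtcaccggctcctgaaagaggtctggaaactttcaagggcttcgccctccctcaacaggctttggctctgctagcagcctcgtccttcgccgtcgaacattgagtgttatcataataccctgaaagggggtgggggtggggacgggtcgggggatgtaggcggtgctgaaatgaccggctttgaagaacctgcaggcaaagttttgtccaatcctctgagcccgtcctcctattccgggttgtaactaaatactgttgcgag
*Hoxd11*, upstream window, chr2:74679308-74679607: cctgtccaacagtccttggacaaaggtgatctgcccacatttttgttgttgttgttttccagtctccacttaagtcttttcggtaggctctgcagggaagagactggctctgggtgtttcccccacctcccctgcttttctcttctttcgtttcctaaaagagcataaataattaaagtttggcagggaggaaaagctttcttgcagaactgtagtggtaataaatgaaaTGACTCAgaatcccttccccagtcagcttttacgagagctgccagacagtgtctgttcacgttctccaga
*Hoxd11*, downstream window, chr2:74682073-74682372: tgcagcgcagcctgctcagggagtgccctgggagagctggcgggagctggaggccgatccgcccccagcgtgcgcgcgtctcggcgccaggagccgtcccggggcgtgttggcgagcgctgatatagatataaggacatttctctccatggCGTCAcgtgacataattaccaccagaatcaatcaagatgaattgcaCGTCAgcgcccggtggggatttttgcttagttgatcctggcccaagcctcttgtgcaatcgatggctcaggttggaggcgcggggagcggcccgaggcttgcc
*Hoxd10*, chr2:74691641-74691940: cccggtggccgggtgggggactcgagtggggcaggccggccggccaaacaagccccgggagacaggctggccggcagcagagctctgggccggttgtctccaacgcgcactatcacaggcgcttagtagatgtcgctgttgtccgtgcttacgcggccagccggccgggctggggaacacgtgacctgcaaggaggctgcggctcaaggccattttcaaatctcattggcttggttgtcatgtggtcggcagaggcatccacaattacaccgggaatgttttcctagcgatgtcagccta
*Hoxd9*, chr2:74697513-74697812: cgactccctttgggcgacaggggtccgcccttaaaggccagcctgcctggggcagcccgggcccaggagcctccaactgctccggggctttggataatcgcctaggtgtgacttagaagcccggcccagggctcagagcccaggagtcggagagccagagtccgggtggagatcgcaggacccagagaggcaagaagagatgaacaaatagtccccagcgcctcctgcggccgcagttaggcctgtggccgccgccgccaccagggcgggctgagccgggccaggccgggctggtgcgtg

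All 9 genes had a window, 10 in all. TGACG stood in 3 of the 10 windows, those of *Hoxd8*, *Hoxd3* and the downstream one of *Hoxd11*, against 20.8% of the 32841 windows of this length in the table. TGANTCA stood only in the upstream window of *Hoxd11* among the 10, against 7.81% of all windows. The full element TGACGTCA, which contains TGACG, was in 0 of the 10, and in 1.79% of all windows. The base composition of the windows differed widely, with G or C at 74.3% of bases for *Hoxd13*, 45.7% for the upstream window of *Hoxd11*, and a median of 52.7% over all windows. A match or its lack describes these letters in these windows.

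Recovered reads ran from 21592364 to 49214786 per iCreb5 library and from 9024162 to 53269417 per tdTomato library. *Creb5* itself had 2555 to 3162 normalised counts in iCreb5 cells and 1470.5 to 2217 in tdTomato cells (log2 change 0.65, limma adjusted p = 0.00219; 0.0501 in litters 4 to 6 alone). The labels do not state how reads of the bovine transgene were counted. Markers of limb mesenchyme were present in every library, with summed counts of 19903 to 24234 in iCreb5 and 22383 to 28214 in tdTomato. Markers of other cells differed with the group: all 14 leukocyte markers and 5 of 8 endothelial markers were higher in iCreb5 cells, and all 15 chondrocyte markers were lower, by limma at an adjusted p under 0.05.

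The *Hoxd13* end of the cluster was higher in iCreb5 cells, *Hoxd9* and *Hoxd8* differed little, and *Hoxd1*, at the far end, was lower, while *Hoxd3* and *Hoxd4* varied too widely to place. Of the 9 genes, *Hoxd10*, *Hoxd11* and *Hoxd12* had every iCreb5 library above every tdTomato library, and in the other 6 the groups overlapped. Over the 16733 genes tested, those reaching 10 normalised counts in 6 or more libraries, 2.83% had all iCreb5 libraries above all tdTomato libraries and 1.92% the opposite. Nothing is read from that comparison, since the contrast chose the cluster. The median log2 change over the 9 genes was 0.26, beside 0.00 over all genes tested. Values below are normalised read counts, that is, read counts divided by a factor for each library. A log2 change is the difference of group means of log2(value + 1), iCreb5 minus tdTomato, with its standard error (SE) from a fit across all genes, and understates the change of low genes. For the 9 genes, the SE and 95% interval of this change describe the spread of the libraries and are no test.

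*Hoxd13*, the first gene of the row in chromosomal order, is the main *Hox* gene of the digits. It had 1476, 1864 and 2318 counts (lowest, median and highest of 6 libraries) in iCreb5 cells. In tdTomato cells it had 858, 1234 and 1765. The groups overlapped, because tdTomato 5b was above the 2 lowest iCreb5 libraries, 3c and 4a. Its log2 change was 0.60 ± 0.16 (SE; 95% interval 0.26 to 0.94), a 1.51-fold higher level. It lies at 74668310 to 74671599 on chromosome 2.

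*Hoxd12* (74675013 to 74677705), a gene of the same late phase, had 1487, 1749 and 2031 counts in iCreb5 cells, against 451, 819 and 914 in tdTomato cells. The groups lay far apart, with the lowest iCreb5 library (4a) above the highest tdTomato library (3c). The log2 change was 1.32 ± 0.17 (SE; 95% interval 0.95 to 1.69). *Hoxd11* (74679557 to 74687016), which with *Hoxa11* shapes the radius and ulna, had 555, 630.4 and 726 counts in iCreb5 cells, against 149, 262 and 290.0 in tdTomato cells. Its change of 1.38 ± 0.16 (SE; 95% interval 1.03 to 1.73) was the largest of the 9. *Hoxd10* (74691924 to 74695105), which helps pattern the hindlimb and its nerves, had 864, 995 and 1137 counts in iCreb5 cells, against 352, 424 and 604 in tdTomato cells. The change was 1.19 ± 0.15 (SE; 95% interval 0.87 to 1.51). These 4 genes cover 26.8 kb of the 96.8 kb between the start of *Hoxd13* and the end of *Hoxd1*, and no library had fewer than 91 reads for any of them.

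**Figure D1:**
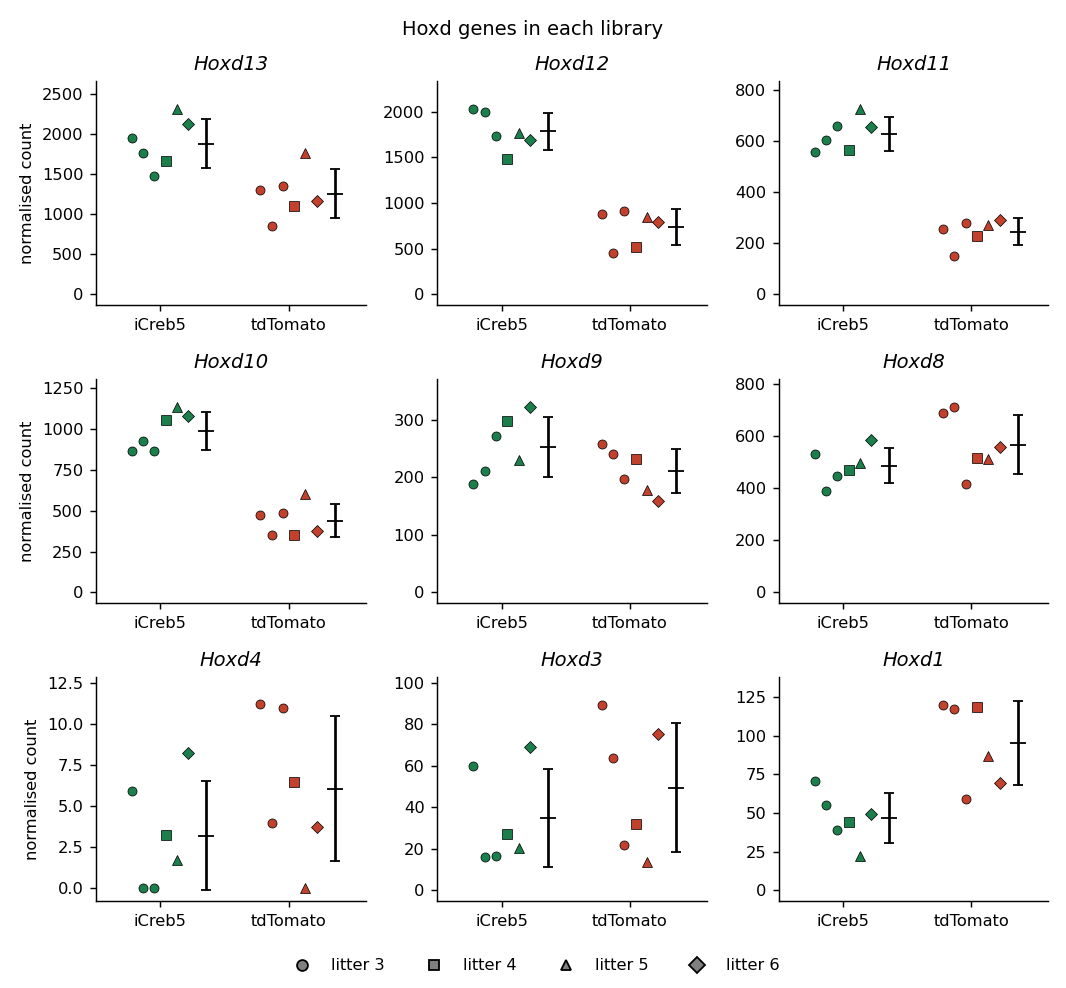
Normalised counts of the 9 *Hoxd* genes (vertical axes, each on its own linear scale) in 6 iCreb5 and 6 tdTomato libraries; point shapes mark the litter and bars the mean ± SD. *Hoxd12*, *Hoxd11* and *Hoxd10* are separated without overlap, *Hoxd13* overlaps through tdTomato 5b, and *Hoxd1* is lower in most iCreb5 libraries.

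*Hoxd9* starts 2.62 kb beyond the end of *Hoxd10*. Together with its *Hox9* relatives it positions the early limb bud. It had 189, 250.1 and 322 counts in iCreb5 cells, against 159, 214 and 257 in tdTomato cells, with a log2 change of 0.26 ± 0.18 (SE; 95% interval -0.12 to 0.64). *Hoxd8*, which is used in the trunk and the proximal limb, had 388, 485 and 586 counts in iCreb5 cells, against 415, 536 and 713 in tdTomato cells (log2 change -0.21 ± 0.15, SE; 95% interval -0.53 to 0.12). For both genes the libraries of the groups were interleaved.

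The *Hoxd1* end carried few reads. *Hoxd1* (74762980 to 74765142), a gene of early patterning and of pain-sensing neurons in mouse, had 22.1, 46.8 and 70.8 counts in iCreb5 cells, against 58.9, 102 and 120.1 in tdTomato cells. Only the iCreb5 library 3a lay above the lowest tdTomato libraries, which were 3c and 6d. Its log2 change of -1.04 ± 0.29 (SE; 95% interval -1.65 to -0.42) was opposite in sign to that of the *Hoxd13* end. *Hoxd3*, an early gene of the neck skeleton, had 16.1, 23.6 and 69.1 counts in iCreb5 cells, against 13.7, 48.0 and 89.3 in tdTomato cells (log2 change -0.45 ± 0.50, SE). Its libraries spread about as widely within groups as between them. *Hoxd4*, also a gene of the neck skeleton, had at most 10 reads in a library, was listed at 0 in iCreb5 3b and 3c and in tdTomato 5b, and was the only one of the 9 under the filter on low values. *Hoxd3* and *Hoxd4* overlap on the same strand, so their reads may be split between them.

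**Figure D2:**
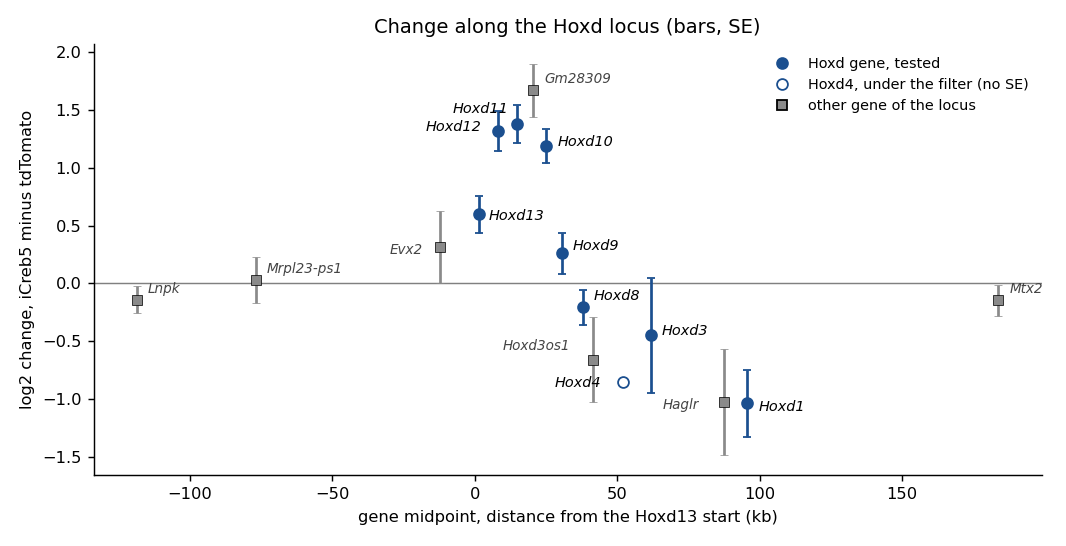
Log2 change (iCreb5 minus tdTomato, vertical axis, bars SE) against distance of the gene midpoint from the start of *Hoxd13* in kb (horizontal axis) for the 9 *Hoxd* genes (circles; *Hoxd4* open, under the filter) and other genes of the locus (squares). The changes are above 1 for *Hoxd12*, *Hoxd11*, *Gm28309* and *Hoxd10*, 0.26 at *Hoxd9*, below 0 from *Hoxd8* on, and -0.14 and -0.15 at the flanking *Lnpk* and *Mtx2*.

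Levels of different genes were compared per kb of the longest coding transcript in GENCODE M21. By this length, the 2 groups had the same order of medians, *Hoxd13*, *Hoxd12*, *Hoxd11*, *Hoxd10*, *Hoxd8*, *Hoxd9*, *Hoxd1*, *Hoxd3* and *Hoxd4*. The medians were 751, 690.2, 567 and 548 counts per kb for *Hoxd13*, *Hoxd12*, *Hoxd11* and *Hoxd10* in iCreb5 cells, against 497, 323, 236 and 234 in tdTomato cells. For *Hoxd8* they were 184 in iCreb5 and 204 in tdTomato, and for *Hoxd9* 117 and 100.4. *Hoxd1* had 25.1 in iCreb5 and 54.7 in tdTomato, and *Hoxd3* had 7.97 and 16.2. In iCreb5 cells the neighbours in this order overlapped from *Hoxd13* to *Hoxd10*, and *Hoxd10* stood clear of *Hoxd8*, at 476 to 626 against 147 to 223 counts per kb. In tdTomato cells *Hoxd10* (194 to 333) and *Hoxd8* (158 to 271) overlapped. The place of *Hoxd11* depends on the length used: over the 4212 bases of all its annotated exons instead of the 1111 of its longest coding transcript, its medians were 150 in iCreb5 and 62.3 in tdTomato, below *Hoxd8*. By all exons *Hoxd11* stood above *Hoxd9* in iCreb5 cells (117) and below it in tdTomato cells (100.4). The order of medians then differed between the groups.

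**Figure D3:**
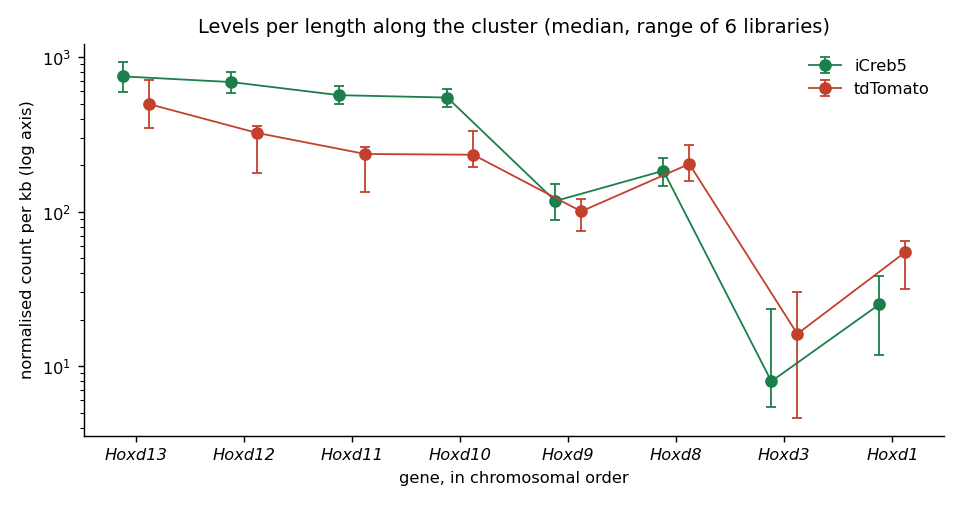
Normalised count per kb of the longest coding transcript (log axis) for 8 *Hoxd* genes in chromosomal order, as the median with the range of 6 libraries for iCreb5 and tdTomato; *Hoxd4* is left out because some of its libraries are at 0. The iCreb5 line lies above the tdTomato line from *Hoxd13* to *Hoxd10*, meets it at *Hoxd9* and *Hoxd8*, and runs below it at *Hoxd3* and *Hoxd1*.

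Shares within a library do not depend on how libraries are scaled to each other. The 4 genes *Hoxd10* to *Hoxd13* made up 84.3%, 86.1% and 88.8% (lowest, median, highest) of the summed *Hoxd* counts in iCreb5 libraries, against 61.4%, 73.3% and 81.5% in tdTomato libraries. The cluster sum averaged 6112 ± 498 counts in iCreb5 cells and 3608 ± 525 in tdTomato cells (SD, n = 6 each). *Hoxd12* supplied 29.3% ± 3.52 of the sum in iCreb5 and 20.1% ± 3.54 in tdTomato (n = 6). *Hoxd13* supplied 30.7% ± 2.64 in iCreb5 and 34.6% ± 4.18 in tdTomato. The ratio of *Hoxd12* to *Hoxd13* counts ran from 0.761 to 1.18 in iCreb5 libraries and from 0.469 to 0.680 in tdTomato libraries, without overlap. *Hoxd12* was among the genes that led to the choice of the cluster and *Hoxd13* was not, so this ratio is a description. The share of *Hoxd8* was 6.50% to 8.90% in iCreb5 and 11.1% to 24.2% in tdTomato, although its counts overlapped between the groups. A share falls when other genes of the sum rise, and the sum holds the genes that led to the choice of the cluster. In bulk samples, fewer cells using a gene and less RNA per cell cannot be told apart.

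The difference was present in each litter for the 5′ genes. For *Hoxd10*, *Hoxd11* and *Hoxd12* this sign was fixed beforehand, because every iCreb5 library lay above every tdTomato library. The values by litter are therefore a description of their size. Log2 changes for *Hoxd11* were 1.46 within litter 3 and 1.29, 1.42 and 1.17 in litters 4, 5 and 6, which have 1 library a group. For *Hoxd12* they were 1.42, 1.51, 1.06 and 1.09 in the same order of litters, and for *Hoxd10* 1.03, 1.58, 0.91 and 1.53. *Hoxd13* had 0.58, 0.58, 0.39 and 0.86. *Hoxd1* was lower in iCreb5 in all 4 litters, at -0.80, -1.40, -1.93 and -0.49. *Hoxd9* was higher in iCreb5 in 3 of 4 litters, at -0.06, 0.36, 0.36 and 1.02, and *Hoxd8* in 1 of 4, at -0.38, -0.12, -0.04 and 0.07.

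**Figure D4:**
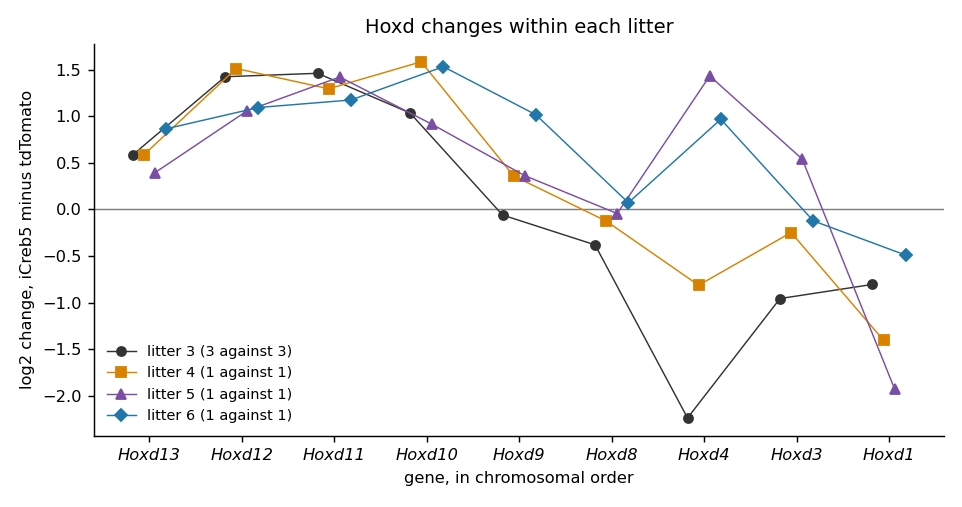
Log2 change (iCreb5 minus tdTomato, vertical axis) of the 9 *Hoxd* genes in chromosomal order within litter 3 (means of 3 libraries a group) and within litters 4, 5 and 6 (1 library a group). All points from *Hoxd13* to *Hoxd10* lie above 0 and all points of *Hoxd1* below 0, while *Hoxd4* and *Hoxd3* scatter to both sides.

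Whether the iCreb5 difference depended on the litter was a separate contrast and could be tested. In an interaction of group with litter set (litters 4 to 6 against litter 3), 0 of the 8 *Hoxd* genes tested passed an adjusted p of 0.05 by limma, edgeR or DESeq2, and 0 had an unadjusted p under that value by any of these tools. Over all genes, 0.0% were called by limma. *Hoxd9* had the largest such difference relative to its error, 0.64 ± 0.34 (SE; 95% interval -0.08 to 1.36, limma adjusted p = 0.833). The intervals are wide, reaching from -0.88 to 0.55 for *Hoxd11*. Levels between the litter sets, with group in the model, gave 0 of 8 calls by each tool (0.0179% of all genes by limma), and 0 at an unadjusted p under 0.05. The largest difference between litter sets was -0.30 ± 0.29 (SE), for *Hoxd1*.

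The 5′ genes varied together within groups. After each group's mean was subtracted, Pearson correlations over the 12 libraries among *Hoxd10*, *Hoxd11*, *Hoxd12* and *Hoxd13* ran from 0.51 to 0.83 over 6 pairs. Among *Hoxd9*, *Hoxd8*, *Hoxd3* and *Hoxd1* they ran from 0.19 to 0.79, with *Hoxd3* and *Hoxd8* the closest pair. Between these sets the 16 pairs ran from -0.61 to 0.03, with *Hoxd11* and *Hoxd1* at the negative end. All pairs share the same 12 libraries and their scaling, so these values describe the libraries and carry no test.

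The neighbours of the cluster on chromosome 2 are not among the 9 genes and were tested (limma, Benjamini-Hochberg over 16733 genes, of which 6.72% were called in either direction, 3.87% as higher and 2.85% as lower in iCreb5). Of 28 listed neighbours and genes annotated between *Lnpk* and *Mtx2*, 17 passed the filter, 1 was higher in iCreb5 and 16 did not pass. Their median log2 change was -0.15, beside 0.00 over all genes. The 1 was *Gm28309* (74683446 to 74694194), a noncoding transcript with 85.1, 97.8 and 111 counts in iCreb5 cells, against 20.2, 29.8 and 43.9 in tdTomato cells (log2 change 1.67 ± 0.23, SE; adjusted p = 0.000228). It overlaps *Hoxd11* and *Hoxd10* on their strand and may share their reads, so it is not a separate reading of the locus.

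*Evx2*, a homeobox gene of the digits that lies 8.75 kb from *Hoxd13* on the other side and on the opposite strand, had 55.1, 69.1 and 121 counts in iCreb5 cells, against 36.3, 60.03 and 128 in tdTomato cells (log2 change 0.31 ± 0.31, SE; adjusted p = 0.674). The groups overlapped across nearly their whole range. *Lnpk*, an endoplasmic reticulum gene at the edge of the digit enhancer domain, had a change of -0.14 ± 0.12 (SE; adjusted p = 0.594), and *Mtx2*, a mitochondrial import gene at the opposite edge, -0.15 ± 0.13 (SE; adjusted p = 0.635). The antisense RNA *Haglr*, at the *Hoxd1* end, had 12.96 ± 6.73 counts in iCreb5 cells and 29.5 ± 19.2 in tdTomato cells (SD, n = 6; log2 change -1.03 ± 0.46, SE; limma adjusted p = 0.244). *Hoxd3os1*, antisense to *Hoxd3*, had a change of -0.66 ± 0.37 (SE; adjusted p = 0.381). Whether counting used the strand was not stated, and reads of these antisense RNAs and of the genes they overlap cannot be told apart. The pseudogene *Mrpl23-ps1* had 0.03 ± 0.20 (SE; adjusted p = 0.962). Of the more distant neighbours, *Atp5mc3* and *Hnrnpa3*, the most abundant, had -0.35 ± 0.18 and -0.18 ± 0.10 (SE; adjusted p = 0.325 and 0.338).

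Signals that feed the late *Hoxd* phase were tested next. In the limb bud the transcription factor Hand2 switches on *Shh*, Shh signalling keeps the repressor form of Gli3 low on the posterior side, and Grem1 protects the outgrowth signals from BMPs. Of 25 such genes 23 passed the filter, of which 2 were called higher, 1 lower and 20 neither, with a median log2 change of 0.06. Over all genes tested, 3.87% were called higher and 2.85% lower. *Hand2* had 597, 699 and 1205 counts in iCreb5 cells, against 300.1, 429 and 504 in tdTomato cells, without overlap (log2 change 0.89 ± 0.19, SE; adjusted p = 0.00787), a call lost within litter 3 (0.0792). *Grem1* had 757, 823 and 1177 counts in iCreb5, against 365, 485 and 762 in tdTomato (0.79 ± 0.18, SE; adjusted p = 0.0111), a call lost within litters 4 to 6 (0.143). The groups of *Grem1* met only at their edges. *Fgf8*, the growth factor of the limb's epithelial ridge, was low throughout, with 4.60 to 9.11 counts in iCreb5 and 12.4 to 64.2 in tdTomato (-1.68 ± 0.41, SE; adjusted p = 0.0192), and its call was lost without tdTomato 3a and 5b (adjusted p = 0.0782), in litters 4 to 6 alone (0.235), in litter 3 alone (0.171) and with no filter on low values (0.0565). *Shh* was under the filter, at no more than 6.46 counts in iCreb5 and 0.988 in tdTomato. *Fgfr1* and *Smo*, the most abundant members that did not pass, had changes of -0.16 ± 0.17 and -0.05 ± 0.16 (SE).

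Genes of the distal limb and digits did not move one way. Of 20, all tested, 2 were higher, 4 were lower and 14 did not pass, with a median log2 change of -0.16. The shares over all genes were 3.87% higher and 2.85% lower. *Sall3*, a zinc-finger gene of limb outgrowth, had 90.8, 141 and 244 counts in iCreb5 cells, against 13.96, 20.4 and 34.0 in tdTomato cells (log2 change 2.71 ± 0.29, SE; adjusted p = 3.01e-05). *Rspo2*, a Wnt co-activator of the limb, named after its values were seen, was higher with a change of 1.17 (adjusted p = 0.00382), a call lost in litter 3 alone (0.0595). The lower genes were *Dlx5*, *Dlx6*, *Aldh1a2* and *Lhx9*. *Aldh1a2*, a retinoic acid synthesis enzyme of the tissue between digits, had 201, 300.02 and 370.0 counts in iCreb5, against 661, 785 and 1088 in tdTomato (-1.48 ± 0.18, SE; adjusted p = 9.08e-05). *Dlx5*, a homeobox gene of limb and bone, had a change of -1.33 ± 0.19 (SE; adjusted p = 0.000289). Its partner *Dlx6* had -2.16 ± 0.48 (SE; adjusted p = 0.0111), a call lost within litters 4 to 6 (0.360) and without tdTomato 3a and 5b (0.0661). *Lhx9*, a LIM homeobox gene of limb outgrowth named after its values were seen, had -1.17 (adjusted p = 0.000397). The ephrin receptor genes *Epha7* and *Epha3*, the most abundant that did not pass, had 0.78 ± 0.24 and 0.27 ± 0.20 (SE; adjusted p = 0.0648 and 0.539). With litter as the replicate block *Epha7* passed (adjusted p = 0.0166).

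Of 13 genes of the proximal limb, all tested, 2 were higher and 11 did not pass, with a median log2 change of 0.06. Among all genes, 6.72% were called in either direction. The higher ones, *Hoxa11* and *Hoxa10*, were also the only calls by limma and edgeR among 9 tested *Hox* genes of groups 8 to 13 outside the *Hoxd* cluster, where DESeq2 called *Hoxa13* as well. *Hoxa11*, the partner of *Hoxd11* in the forearm, had 1162, 1450 and 1651 counts in iCreb5 cells, against 757, 1055 and 1081 in tdTomato cells (log2 change 0.54 ± 0.12, SE; adjusted p = 0.0118). *Hoxa10* had a change of 0.45 ± 0.11 (SE; adjusted p = 0.0171). Both calls were lost in litter 3 alone (adjusted p = 0.0810 and 0.0814) and in litters 4 to 6 alone (0.124 and 0.0538), where the changes themselves were 0.53 and 0.44, and 0.55 and 0.46. Without iCreb5 5 and 6 *Hoxa10* also lost its call (0.0781). *Hoxa13*, the partner of *Hoxd13* in the digits, had 0.40 ± 0.13 (SE; adjusted p = 0.0980 by limma, 0.101 by edgeR and 0.0384 by DESeq2), and *Hoxa9* 0.16 ± 0.14 (SE; adjusted p = 0.618). *Shox2*, a gene of the upper limb, had -0.23 ± 0.15 (SE; adjusted p = 0.472).

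Hox proteins bind DNA with Pbx and Meis partners. Of 12 genes listed as cofactors, not all of them Pbx or Meis genes, 1 was higher and 11 did not pass. Beside this, 6.72% of all genes were called in either direction. *Pbx4* had 76.9, 95.9 and 140.05 counts in iCreb5 cells, against 35.6, 44.5 and 59.7 in tdTomato cells, without overlap (log2 change 1.09 ± 0.23, SE; adjusted p = 0.00737). Its call was lost in litter 3 alone (adjusted p = 0.0976) and in litters 4 to 6 alone (0.0954), with changes of 1.07 and 1.12. *Cbx1* and *Tgif1*, the most abundant that did not pass and neither a Pbx nor a Meis gene, had -0.00 ± 0.13 and 0.29 ± 0.11 (SE). Polycomb and trithorax proteins keep *Hox* clusters silent or active, and cohesin and CTCF set their contacts. Of 27 such genes 0 passed by limma and edgeR and 1 by DESeq2, with 1 at an unadjusted p under 0.05 by each tool. By limma and in the DESeq2 call that was *Bmi1*, named after its values were seen (log2 change 0.23 ± 0.09, SE; adjusted p = 0.165 by limma and 0.0353 by DESeq2). The list's median was 0.08. The most abundant, *Rnf2* and *Rad21*, had 0.13 ± 0.10 and 0.26 ± 0.16 (SE; limma adjusted p = 0.562 and 0.439).

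**Figure D5:**
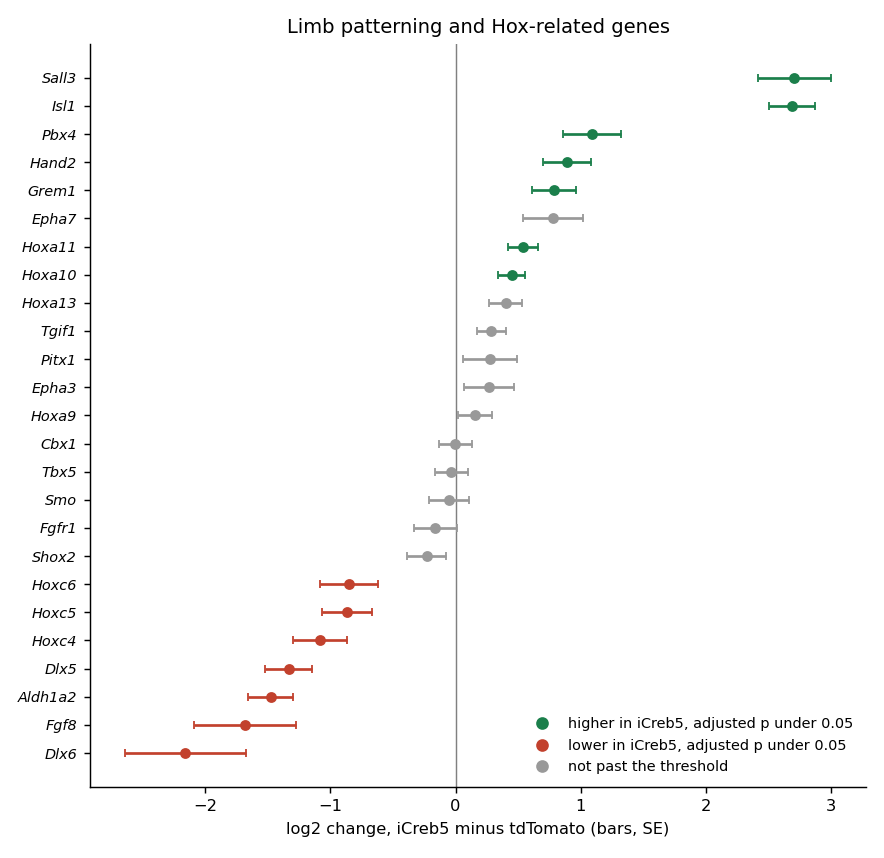
Log2 change (iCreb5 minus tdTomato, horizontal axis, bars SE) of limb patterning, limb identity and *Hox*-related genes named from the lists. *Sall3* and *Isl1* are the highest at 2.71 and 2.69, *Dlx6* the lowest at -2.16, and grey genes did not pass an adjusted p of 0.05.

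Forelimb and hindlimb cells differ in *Hoxd* and *Hoxc* use, so their identity genes were read beside the cluster. *Tbx5*, which marks forelimbs, had 730 to 1242 counts in iCreb5 and 815 to 1135 in tdTomato (log2 change -0.04 ± 0.13, SE; adjusted p = 0.930). *Pitx1*, which marks hindlimbs, had 1909 to 3848 in iCreb5 and 1262 to 3287 in tdTomato (0.27 ± 0.22, SE; adjusted p = 0.573). Both were thus present in every library of both groups. Of 11 identity genes 2 were higher, 3 were lower and 6 did not pass, beside 3.87% of all genes higher and 2.85% lower. *Isl1*, a LIM homeobox gene that acts before hindlimb outgrowth, had 696, 881 and 1009 counts in iCreb5, against 100.04, 127 and 209 in tdTomato (2.69 ± 0.18, SE; adjusted p = 3.44e-07). *Tbx4*, the hindlimb T-box gene, named after its values were seen, was higher with a change of 0.54 (adjusted p = 0.0330), and its call was lost in 11 of 25 alternatives. These were litter 3 alone (adjusted p = 0.0710), litters 4 to 6 alone (0.0671), no filter on low values (0.0550), and leaving out tdTomato 3a and 5b together (0.0896) or any one of iCreb5 3a, 3b, 3c and 4a and tdTomato 4a, 5b and 6d (0.0549 to 0.0826). The 3 lower genes lie at the 3′ end of the *Hoxc* cluster: *Hoxc4* (-1.08 ± 0.22, SE; adjusted p = 0.00516), *Hoxc5* (-0.87 ± 0.20, SE; adjusted p = 0.0141) and *Hoxc6* (-0.85 ± 0.23, SE; adjusted p = 0.0366). The *Hoxc5* and *Hoxc6* calls were lost within litter 3 (adjusted p = 0.148 and 0.301), and within litters 4 to 6 all 3 were (0.188, 0.130 and 0.0729). *Hoxc6* also lost its call without iCreb5 5 and 6 (0.133), without tdTomato 3a and 5b (0.0798), with no filter on low values (0.0674), with libraries rescaled to equal totals (0.0560) and without any one of iCreb5 4a, 5 and 6 and tdTomato 3a, 3b, 5b and 6d (0.0517 to 0.0873).

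Marker levels of other cell types moved with the group. Summed leukocyte markers were 2698 to 11838 in iCreb5 and 657 to 1183 in tdTomato, summed endothelial markers 1897 to 4298 in iCreb5 and 1374 to 1916 in tdTomato, and summed chondrocyte markers 106742 to 148197 in iCreb5 and 214922 to 466335 in tdTomato. Of the other lists, 6 of 8 tested osteoblast markers and 1 each of the Schwann cell, neuron and epidermis markers were lower, 3 of 7 joint interzone and 1 of 5 tendon markers were higher, 1 of 7 loose connective tissue markers moved each way, and 0 of the limb mesenchyme, skeletal muscle and red cell markers passed. For comparison, 6.72% of all genes tested were called in either direction. No list had a marker at 0 in all libraries. The part of these marker differences in the *Hoxd* differences was not tested. Among iCreb5 libraries, 4a had the lowest leukocyte sum (2698) and 6 the highest (11838), with *Hoxd13* at 1664 and 2124 counts, *Hoxd12* at 1487 and 1692, *Hoxd11* at 564 and 655, and *Hoxd10* at 1059 and 1081. All 4 were higher in library 6 than in 4a, *Hoxd13* by the most. By rising leukocyte sum the iCreb5 libraries were 4a (2698), 3b (3610), 3c (5045), 3a (6596), 5 (7476) and 6 (11838). In that order *Hoxd13* had 1664, 1771, 1476, 1957, 2318 and 2124 counts, with its highest values in 3a, 5 and 6. *Hoxd12* had 1487, 1997, 1734, 2031, 1763 and 1692 in the same order of libraries. *Hoxd11* had 564, 605, 660, 555, 726 and 655, and *Hoxd10* had 1059, 931, 866, 864, 1137 and 1081. Without iCreb5 5 and 6, the libraries with the highest leukocyte sums, the log2 changes were 1.31 for *Hoxd11*, 1.34 for *Hoxd12*, 1.10 for *Hoxd10* and 0.47 for *Hoxd13*, the last against 0.60 with all libraries. Without tdTomato 3a, which had the fewest reads, and 5b, which had the lowest chondrocyte sum of its group, they were 1.44, 1.46, 1.34 and 0.75 in the same order of genes. The iCreb5 libraries left without 5 and 6 still had leukocyte sums of 2698 to 6596, against at most 1183 in tdTomato. Leaving out 5 and 6 therefore did not make the groups alike in these markers. By rising chondrocyte sum the tdTomato libraries were 5b, 3a, 6d, 4a, 3b and 3c. In that order *Hoxd13* had 1765, 1301, 1166, 1110, 858 and 1358 counts, and *Hoxd10* had 604, 475, 374, 353, 352 and 484. *Hoxd12* had 846, 882, 793, 521, 451 and 914, and *Hoxd11* had 271, 254, 290, 230, 149 and 280. This order was not tested.

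The genes most like the cluster were found by Pearson correlation with the mean standardised profile of the 8 *Hoxd* genes tested, over 12 libraries and 12299 other genes. The highest were *Ccl9* (0.91), a macrophage chemokine, *Tnf* (0.87), *Tfdp2* (0.87), *Gpr183* (0.85) and *Adgre1* (0.85), the last a macrophage marker. With group means subtracted they were *Mtx3* (0.94), *Tmtc1* (0.90), *Zmat3* (0.89), *Ccl9* (0.86) and *Zfp947* (0.86). For *Hoxd13* alone the closest were *Hand2os1* (0.90), the noncoding neighbour of *Hand2*, *Zbtb18* (0.90) and *Tmem35a* (0.90), and with group means subtracted *Chchd10* (0.94), *Fundc2* (0.93) and *Fmnl2* (0.91). For *Hoxd9* alone they were *Larp1b*, *Grpr* and *Tbccd1* (0.79 each), and with group means subtracted *Xdh* (0.85), *Rmc1* (0.84) and *Hccs* (0.80). All these genes share the libraries and their scaling with the *Hoxd* genes, and with so many genes compared high values are found for any profile. As measured, the profiles hold the group difference that led to the choice of the cluster. Genes that differ between the groups can rank high for that alone. The cluster profile also averages genes that varied in opposite directions, with *Hoxd1* and *Hoxd11* correlated at -0.84 as measured. A gene like that profile need not be like each *Hoxd* gene.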

How the data were processed

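RNA was measured as 12 libraries, 6 iCreb5 and 6 tdTomato, grouped by the labels' cell type. FastQC, STAR, Salmon and DESeq2, and the build mm10, are named in the submitters' processing notes, with no version or role. The deposited table holds normalised signal, that is, gene counts divided by 1 size factor per library, judged from the deposited values: 100% were whole multiples of 1 unit, within a tolerance of 1e-06. A read was worth 0.494 to 2.79 units, and 3 reads 1.48 to 8.38, which covers counting error only. The 8 columns of a second deposited table, of stage P0, match no labelled sample and were not used.

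The test was limma 3.58.1 (two-sided, moderated with an intensity trend, R 4.3.3), run on log2(value + 1) of genes reaching 10 in 6 or more libraries, with Benjamini-Hochberg adjustment and 0.05 as the threshold. Recovered reads were tested with edgeR 4.0.16 (quasi-likelihood), which called 641 genes higher and 471 lower, and DESeq2 1.42.0. The fits were checked on simulated data. Gene positions and lengths are from GENCODE M21, whose symbols were looked up by Ensembl identifier (123 of 54532 had none). Promoters are from RefSeq.

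The *Hoxd* genes, the 8 gene lists and the marker lists were chosen with earlier results of these data known. From each list the text names the most changed of those called (at most 4) and the 2 most abundant of those not called, and every tested gene between *Lnpk* and *Mtx2*. It also names the genes most like the cluster, of mean value at least 50. The labels do not tie libraries to single embryos, so p-values rest on library spread, which may be partly technical. The main fit of iCreb5 against tdTomato had no litter term. The labels give litters shared by the groups, and litter was the pairing only in alternative fits, as the replicate block. With that block 859 genes were called higher and 728 lower, against 648 and 477 in the main fit. Same-litter deviations from group means correlated across genes at 0.13, 0.15, 0.35 and 0.00 for litters 3, 4, 5 and 6. Alternatives were other pseudocounts, filters and scaling, edgeR, DESeq2, a litter block, litter subsets and leaving out each library.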

Additional observations from a re-analysis of the deposited data

Results flagged for a closer look

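In 120 sets of 6 libraries, made of the *Hoxd* genes, the named list genes and the summed markers in each group, 7 had a library far from the other 5, by the size of its gap to the nearest against the group's range (Dixon's test at 95%). About 1 in 20 is flagged by chance. None was a *Hoxd* gene. tdTomato 5b had 13689 counts of *Atp5mc3* (next 8513), 3481 of *Cbx1* (next 2402) and 4026 of *Fgfr1*, the lowest of its group (next 6511). tdTomato 3a, the shallowest library, had 64.2 of *Fgf8* (next 27.4) and 7002 of *Rnf2* (next 5580.4). iCreb5 5 had 1205 of *Hand2* (next 812) and 809.5 of *Mrpl23-ps1* (next 561).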

How the results depend on the processing

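The *Hoxd10*, *Hoxd11*, *Hoxd12* and *Hoxd13* log2 changes stayed above 0 in all 25 alternatives, with ranges of 1.03 to 1.34, 1.24 to 1.46, 1.19 to 1.46 and 0.47 to 0.75, and *Hoxd1* stayed below 0 (-1.27 to -0.80). For *Hoxd10*, *Hoxd11* and *Hoxd12*, whose groups did not overlap, other pseudocounts, litter subsets and leaving out libraries could not turn the sign. The filters do not enter the differences of the 9 genes. *Hoxd9* ran from -0.06 to 0.58, *Hoxd8* from -0.38 to -0.03, *Hoxd3* from -0.96 to 0.06 and *Hoxd4* from -2.24 to 0.53. The median over the 9 genes was 0.26, but -0.060 within litter 3 and 0.58 within litters 4 to 6, both set by *Hoxd9*. Of the list genes, 18 were called, but 9 within litter 3 and 11 within litters 4 to 6, where fewer libraries were compared. With litter as the replicate block 24 were called, 12 higher and 12 lower, and of the named genes only *Epha7* changed its call; with litter 3 averaged to 1 value a group and the same block it was 17, without *Fgf8*, *Grem1*, *Dlx6*, *Hoxa11*, *Hoxc4* and *Hoxc5*. With no filter on low values *Fgf8*, *Hoxc6* and *Tbx4* lost their calls, and *Hoxc6* did so with equal totals. DESeq2 called 25 list genes, *Epha7*, *Hoxa13* and *Bmi1* among them, and 922 higher and 715 lower over all genes. The interaction and litter set calls stayed at 0 of the *Hoxd* genes. Rescaling libraries to equal totals moved the median of all genes to 0.07 and gave 799 higher and 382 lower genes, against 648 and 477. Leaving out iCreb5 5 and 6, or tdTomato 3a and 5b, was chosen after seeing the data. Depth limits *Hoxd4* and *Hoxd3*.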
